A study of Brachypodium distachyon with 11 samples.

Results

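ELF3 binding late in the daily cycle was compared with ELF3 binding in the morning, using the deposited peak lists of the overexpression line ELF3_OX 20 and 4 hours after lights on (zeitgeber times ZT20 and ZT4). Each side held 2 lists, from long days (LD) and from short days (SD), and photoperiod paired the lists. All deposited peaks of the 4 lists were merged into 26342 regions wherever they overlapped by at least 1 bp. A region listed in both ZT20 lists and in no ZT4 list is called ZT20-only here, and the reverse is called ZT4-only. There were 995 ZT20-only regions (3.78% of the merged regions) and 670 ZT4-only regions (2.54%).

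Brachypodium distachyon Bd21-3 is a small grass that serves as a laboratory model of wheat and barley, and the assay was chromatin immunoprecipitation with sequencing (ChIP-seq). The series has 11 samples, of which 10 are anti-FLAG ChIP libraries with a peak list. The 4 ELF3_OX libraries all came from seedlings grown for 2 weeks at 20 °C, and they differed in photoperiod and harvest time. In the study ELF3 carried GFP and FLAG tags, and the UBIQUITIN promoter, which is active in most tissues at all times, drove it in a line homozygous for a single insertion. The paper nonetheless reports from protein blots that ELF3 rose during the night and fell quickly in light, with lower levels in LD. The amount of tagged protein may thus have differed between ZT20 and ZT4, and its part in the peak lists was not tested. The other lists were ELF3_OX at ZT0 in LD, SD and constant light (LL), a pair of phyC_OX lists from LD at ZT20, and a PRR37_OX list from LD at ZT4. If the day lengths were those of the flowering experiments, ZT4 fell in the light in both photoperiods, whereas at ZT20 the light was about to end in LD and had been off for hours in SD. Each condition was a single library and a control ChIP without the tag was not analysed here, so a difference between times rests on 2 libraries a side. Whole seedlings were used, and binding in more cells and stronger binding per cell cannot be told apart.

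ELF3 is a scaffold protein of the evening complex, a repressor of the circadian clock that also holds ELF4 and the DNA-binding factor LUX. The complex is known to act in the evening and at night on promoters of clock, growth and flowering genes, and ELF3 itself has no known DNA-binding domain. In grasses, loss of ELF3 weakens the response of flowering to day length. Phytochromes such as PHYC are red-light receptors, and PRR37, also called PPD1, is a pseudo-response regulator of the clock and a flowering regulator of cereals.

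The lists were of similar length. The LD list held 14346 peaks at ZT20 and 14884 at ZT4, and the SD list held 14418 at ZT20 and 13666 at ZT4. The log2 ratio of ZT20 to ZT4 was -0.053 in LD and 0.077 in SD, with a mean of 0.012 ± 0.092 (SD, n = 2 photoperiods). An exact sign-flip permutation, two-sided, gave p = 1, where 0.5 is the smallest p possible. Most of these peaks were weak: the median −log10 p was between 2.09 and 2.25, and between 69.2% and 82.6% of the peaks of a list had a q-value of 1. Past q 0.01, the filter in the study's methods, 341 and 237 peaks were left in LD at ZT20 and ZT4, and 167 and 217 in SD. The paper reports many more significant ELF3 peaks at ZT20 than this filter left here. The peaks past q 0.01 are therefore not the paper's set of ELF3 peaks. Read depth was unknown from the lists.

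Most merged regions did not follow the time of harvest. A single list held 11501 regions, and all 4 lists held 5835 (22.2%). The 6 ways of being in exactly 2 lists give a scale for the 2 time-specific classes. LD lists of both times shared 1124 regions, SD lists of both times shared 851, SD ZT20 with LD ZT4 shared 930, and LD ZT20 with SD ZT4 shared 595. The ZT20-only count of 995 was therefore second among the 6 pairings, and the ZT4-only count of 670 was the fifth. Which class was the larger also depended on the photoperiod. In LD alone, 5147 regions were in the ZT20 list and not the ZT4 list, against 5663 the other way, and in SD alone these counts were 5957 and 5236.

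**Figure D1:**
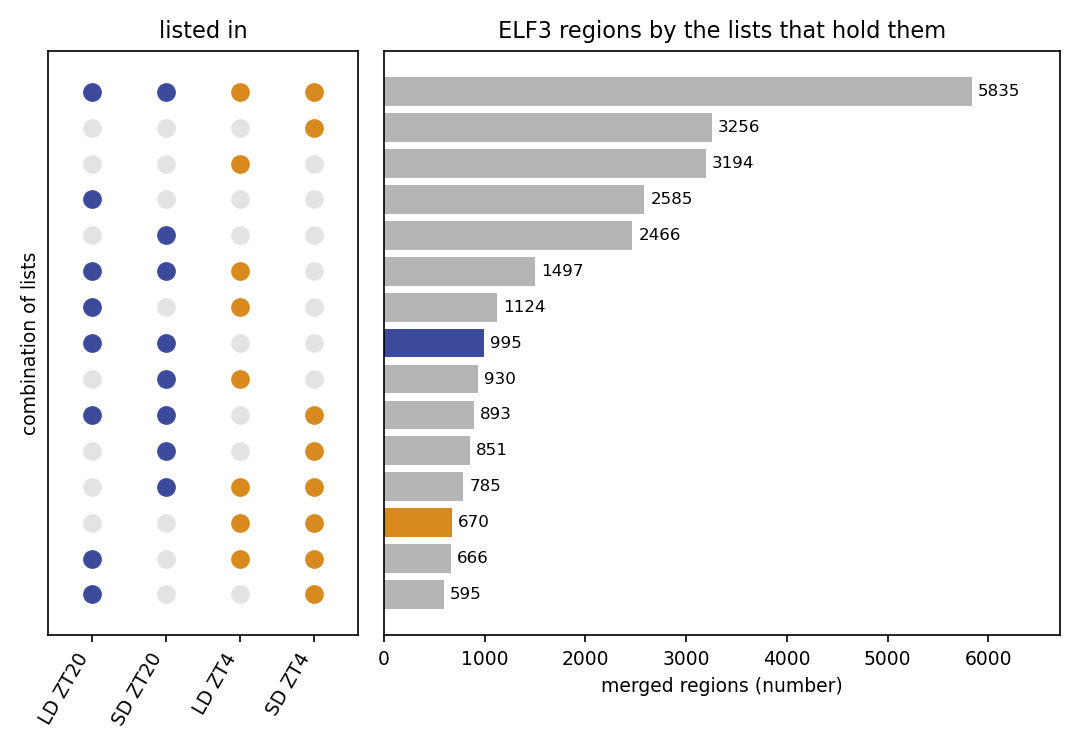
Number of merged regions (horizontal axis) in each combination of the 4 ELF3 lists (rows, filled circles mark the lists that hold the region). The ZT20-only bar (995, blue) and the ZT4-only bar (670, orange) lie among the other combinations of 2 lists, while the combination of all 4 lists (5835) is the longest.

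The time-specific regions were weak peaks. In each region the smaller of its 2 fold enrichments over background was between 1.51 and 3.43 for ZT20-only regions, with a median of 2.06, and between 1.45 and 3.14 for ZT4-only regions, with a median of 1.98. The weaker of the 2 peaks had a −log10 p below 2 in 74.1% of ZT20-only and 83.7% of ZT4-only regions, against 42.8% for the weakest of the 4 peaks in regions of all 4 lists. Both peaks had a q-value of 1 in 85.5% of ZT20-only and 94.5% of ZT4-only regions. The members nearest the deposition threshold had a stronger peak with −log10 p between 1.07 and 1.08, in both classes. Just outside the rule were regions in both lists of a time and 1 list of the other, 2390 for ZT20 and 1451 for ZT4, in which the opposite peak had a −log10 p below 1.5 in 357 and 230 regions. A peak of the opposite time lay within 1 kb of 261 ZT20-only regions (26.2%) and 172 ZT4-only regions (25.7%).

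**Figure D2:**
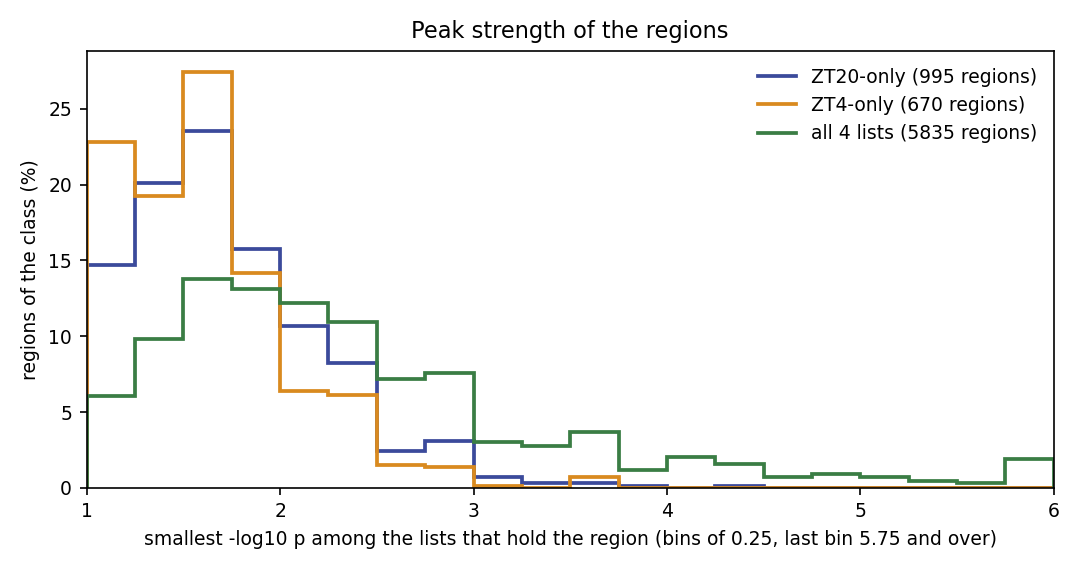
Share of the regions of each class (vertical axis) by the smallest −log10 p among the lists that hold the region (horizontal axis, bins of 0.25). ZT20-only (blue) and ZT4-only (orange) regions crowd between 1 and 2, and regions of all 4 lists (green) reach further to the right.

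The strongest ZT20-only regions had folds near 3 in both lists. The first by the smaller fold lay inside the protein-coding gene LOC100832024 (Bd2:52933361-52933597), with a fold of 3.84 in LD and 3.43 in SD. It was also listed in 4 of the 6 other libraries, with 3.103 and 3.381 in ELF3 LD and SD at ZT0, 3.22 in phyC replicate 1 and 2.87 in PRR37. The second (Bd2:47966916-47967136), with folds of 3.61 and 3.24, had no annotated gene within 2 kb. The third lay inside LOC100837027 (Bd1:26110660-26110990), with 3.28 and 3.15, and 5 of the 6 other lists held it. The next were inside LOC100828305, LOC100824106 and LOC100828073, and the last of the 10, inside LOC100821566, had 2.97 and 3.15. Of these 10 regions, 7 lay inside a gene and 3 had none within 2 kb. No function is given for these genes in the annotation used here.

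The strongest ZT4-only regions had somewhat lower folds, with a smaller fold of 3.14 at the first region and 2.71 at the last of the 10, against 3.43 and 2.97 for ZT20-only. Both folds reached 3 in 8 ZT20-only and 2 ZT4-only regions. The first (Bd3:55050126-55050338) had folds of 3.14 in LD and 3.20 in SD and no gene within 2 kb. The second lay inside LOC100838154 (Bd5:24668583-24668821), with 3.47 and 3.00, and the third overlapped an end of LOC100841831 (Bd2:14359973-14360452), with 2.99 and 3.48. A region overlapping an end of LOC100844812 (Bd1:60978331-60978577), with 2.99 and 2.95, was listed in all 6 other libraries, PRR37 among them with 2.79. In contrast, regions at LOC100841477 (2.81 and 2.83) and LOC100834900 (2.71 and 2.75) were in none of the 6.

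By comparison, the 5 strongest regions of all 4 lists had a smallest fold between 6.83 and 13.38. At an end of LOC100833891 (Bd3:53755882-53756378) the folds were 7.83 and 8.04 at ZT20 and 7.72 and 7.92 at ZT4, in LD and SD. A region inside the non-coding RNA gene LOC112269920 had 8.20 and 6.83 at ZT20 and 8.37 and 7.05 at ZT4, so here LD was above SD at both times. The other 3 lay within 5 kb of a chromosome end, where none of the time-specific regions lay.

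**Figure D3:**
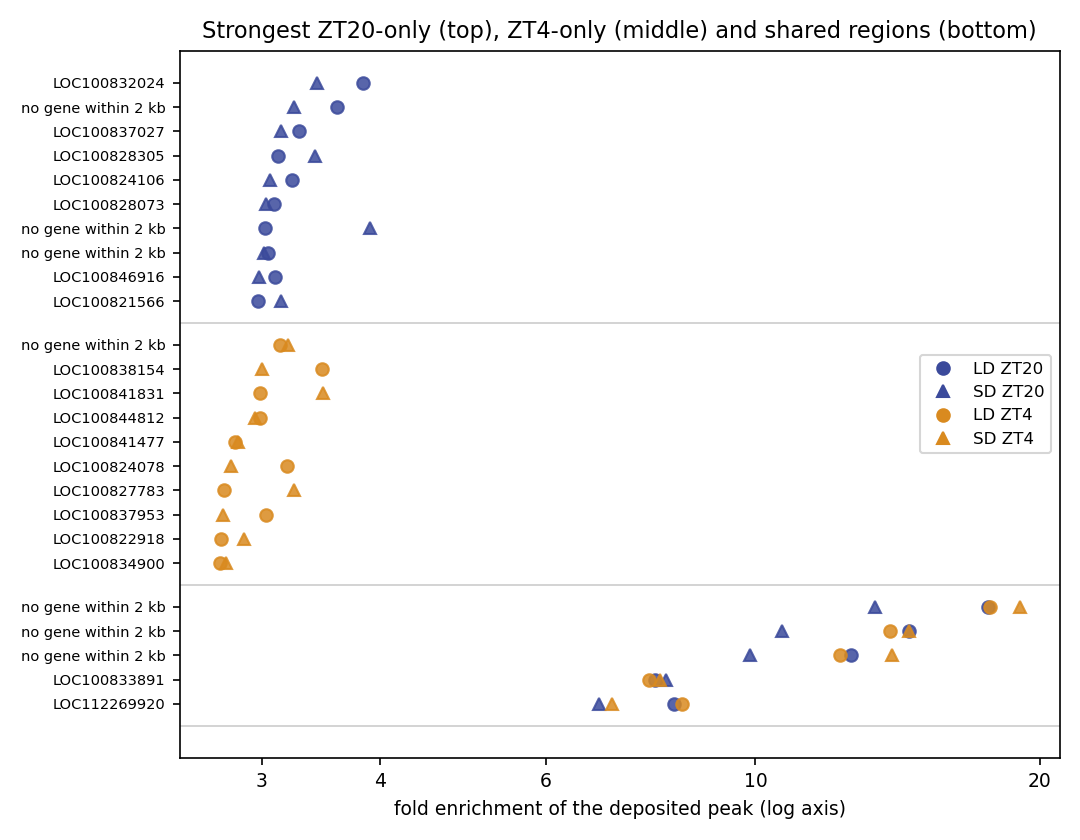
Fold enrichment of the deposited peak (horizontal log axis) in the 10 strongest ZT20-only, 10 strongest ZT4-only and 5 strongest shared regions (rows, named by the nearest gene within 2 kb), with ZT20 in blue, ZT4 in orange, circles for LD and triangles for SD. The time-specific regions sit below 4 and the shared ones between 6.83 and 19.06.

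Past q 0.01 in even 1 list, the ZT20-only class held 1 region and the ZT4-only class none. That region (Bd4:1840915-1841344, 430 bp) lay 234 bp outside the non-coding RNA gene LOC112268741. Its fold was 4.12 in SD at ZT20 (−log10 p 6.91, −log10 q 2.42) and 2.69 in LD at ZT20 (−log10 p 2.96, −log10 q 0.05). Of the ZT20 lists, only SD passed q 0.01 there. The ELF3 lists at ZT0 held it too, with folds of 4.82 in LD, 5.27 in SD and 3.45 in LL, of which LD and SD passed q 0.01 (−log10 q 4.55 and 6.51). No list from ZT4 held a peak there, nor did the phyC_OX lists or the PRR37_OX list. It was thus listed in all 5 ELF3 libraries from ZT20 and ZT0 and in none of the 5 other ChIP libraries. This combination of lists was seen in 27 of the 995 ZT20-only regions (2.71%). Among ZT4-only regions, 20 of 670 (2.99%) were in all 3 ZT0 lists and in no phyC_OX or PRR37_OX list, a share close to the other. By the smaller fold it stood second of the 27 (chosen after their values were seen, as was this region). The first was a site with no gene within 2 kb (Bd2:33088633-33088899), with 2.85 and 2.79 at ZT20 and 2.46 to 3.39 at ZT0, and the third a site inside LOC100824414 (Bd3:38592853-38593172), with 2.51 and 2.49 at ZT20.

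Where q under 0.01 decides what is listed, the time-specific sets were other regions. Past q 0.01 in any of the 4 lists there were 485 regions. Of these, 18 (3.71%) passed in both ZT20 lists alone, 14 (2.89%) in both ZT4 lists alone and 78 in all 4. Among the other pairings, 43 passed in both LD lists alone and 2 in both SD lists alone. LD ZT20 with SD ZT4 had 15, and SD ZT20 with LD ZT4 had 7. All 18 and all 14 had a weaker deposited peak in both lists of the opposite time, and all were listed in the 6 other libraries. These sets were thus chosen by strength and not by presence. At LOC112271803 (Bd1:41984999-41985510) the fold was 5.74 in LD and 5.30 in SD at ZT20, against 4.05 and 3.79 at ZT4. At an end of LOC100826679 (Bd3:47023843-47024270) it was 5.56 and 4.68 against 4.51 and 3.47. Both ZT20 values were above both ZT4 values at these sites. In the other direction, at an end of LOC100829458 (Bd1:64090011-64090513) it was 4.84 in LD and 6.89 in SD at ZT4, against 4.32 and 3.72 at ZT20. Beside LOC100829061 (Bd1:53912686-53912961) it was 4.76 and 5.67 against 3.71 and 3.91. The threshold chose these sites for that order, so no test was made on it, and folds of separately called lists are not on a common scale.

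Although weak, the time-specific regions differed by class in 2 properties that the rule did not use. The first was whether other libraries listed them. ZT20-only regions were more often listed than ZT4-only regions in all 6 other libraries. The share was 51.7% against 33.3% in ELF3 LD at ZT0, 57.2% against 37.9% in ELF3 LL at ZT0, and 39.8% against 37.2% in ELF3 SD at ZT0. It was 40.6% against 29.1% in phyC replicate 1, 34.7% against 22.5% in phyC replicate 2, and 37.4% against 23.4% in PRR37. The 95% Wilson intervals, which cover counting error only, overlapped in ELF3 SD at ZT0 (36.8 to 42.9% and 33.6 to 40.9%) and in no other list. Over all merged regions, which include the stronger regions of 3 and 4 lists, the shares were 47.7% in ELF3 LD, 43.99% in ELF3 SD and 50.9% in ELF3 LL at ZT0, 40.9% and 34.8% in phyC replicates 1 and 2, and 37.0% in PRR37. ZT20-only regions were thus above the share of all regions in ELF3 LD and LL at ZT0, close to it in phyC and PRR37 and below it in ELF3 SD, while ZT4-only regions were below it in every list. Regions of 2 lists with 1 of each time, pooled, had shares between the classes, from 28.3% in phyC replicate 2 to 49.0% in ELF3 LL. Single pairings did not all lie between them. For example, regions of SD ZT20 with SD ZT4 were listed in PRR37 at 40.2% and those of LD ZT20 with LD ZT4 at 21.2%. The PRR37 list was the only one of the 6 from ZT4, and the phyC_OX lists were from ZT20. Regions are not replicates, and no test over libraries was made on this share.

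**Figure D4:**
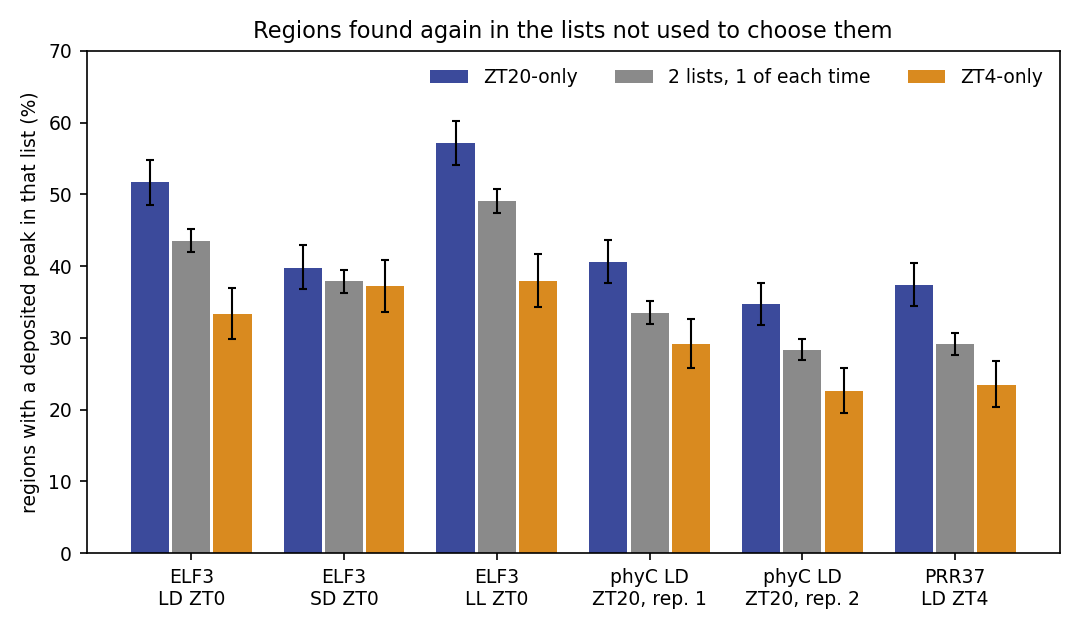
Percent of regions with a deposited peak in each of the 6 ChIP lists not used to choose them (horizontal axis), for ZT20-only regions (blue), regions of 2 lists with 1 of each time (grey) and ZT4-only regions (orange). Bars are shares and error bars 95% Wilson intervals, and blue is above orange in each list, with overlapping intervals in ELF3 SD ZT0 alone.

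Taken by combination, all 3 ZT0 lists held 179 ZT20-only regions (18.0%) and 64 ZT4-only regions (9.55%), and no ZT0 list held 190 (19.1%) and 217 (32.4%). Both phyC_OX lists held 212 (21.3%) and 69 (10.3%). None of the 6 lists held 115 ZT20-only regions (11.6%) and 147 ZT4-only regions (21.9%). Pooled regions of 2 lists with 1 of each time lay between the classes. Their shares were 13.9% for all 3 ZT0 lists, 25.8% for no ZT0 list, 15.3% for both phyC_OX lists and 16.8% for none of the 6. Of all merged regions, 23.7% were in none of the 6, close to the ZT4-only share. The difference between the classes was there among the weakest members as well. With a weaker peak of −log10 p between 1 and 1.5, the share of 346 ZT20-only and 282 ZT4-only regions was 44.2% against 28.7% in ELF3 LD at ZT0 and 37.0% against 22.0% in PRR37. With a weaker peak of at least 2, 258 ZT20-only and 109 ZT4-only regions were left. Their shares were 61.2% against 36.7% in ELF3 LD at ZT0. In phyC they were closer, at 51.9% against 46.8% in replicate 1 and 36.4% against 32.1% in replicate 2. There the pooled regions of 1 list of each time were below both classes (38.6% and 30.7%). The direction turned at 1 place, in ELF3 SD at ZT0 for a weaker peak of −log10 p between 1.5 and 2 (38.1% against 39.4%).

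The second property was position. Of the ZT20-only regions, 490 (49.2%, interval 46.1 to 52.4%) had their midpoint within 500 bp of an end of a protein-coding gene, against 235 of the ZT4-only regions (35.1%, interval 31.6 to 38.8%). For regions of 2 lists with 1 of each time the share was 41.5%, and for all 4 lists it was 59.3%. ZT4-only regions lay more often deeper inside a gene (23.7% against 18.0%) and more than 2 kb from any gene (24.0% against 18.4%). Gene density was alike, with a median of 11 protein-coding genes within 50 kb on either side of both. Region width was similar, with medians of 266 bp for ZT20-only and 285 bp for ZT4-only regions. The strand of the genes was not used here, so starts and ends of transcription cannot be told apart.

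The position difference was seen list by list. Of all peaks, 51.0% lay within 500 bp of a gene end in LD ZT20 and 51.4% in SD ZT20, against 47.1% in LD ZT4 and 47.9% in SD ZT4. For regions in a single list the shares were 40.2% in LD ZT20, 42.6% in SD ZT20, 30.4% in LD ZT4 and 32.4% in SD ZT4. On both measures the ZT20 lists were above the ZT4 lists in both photoperiods and did not overlap with them. For all peaks the means were 51.2% ± 0.26 and 47.5% ± 0.57 (SD, n = 2 lists a side), a difference of 3.65 percentage points. The exact two-sided permutation p was 0.333 without the photoperiod pair and the exact sign-flip p was 0.5 with it, each the smallest that 4 lists can give. Peaks with −log10 p below 1.5 showed 42.3% and 42.2% at ZT20 against 35.7% and 38.2% at ZT4, and peaks of at least 2 showed 56.0% and 58.1% against 54.4% and 55.4%. Among the other libraries, the ELF3 lists from ZT0 had 51.2% in LD, 48.1% in SD and 50.7% in LL, the phyC_OX lists from ZT20 had 52.3% and 52.1%, and the PRR37 list from ZT4 had 51.7%. With a single library per condition, library and time cannot be told apart.

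**Figure D5:**
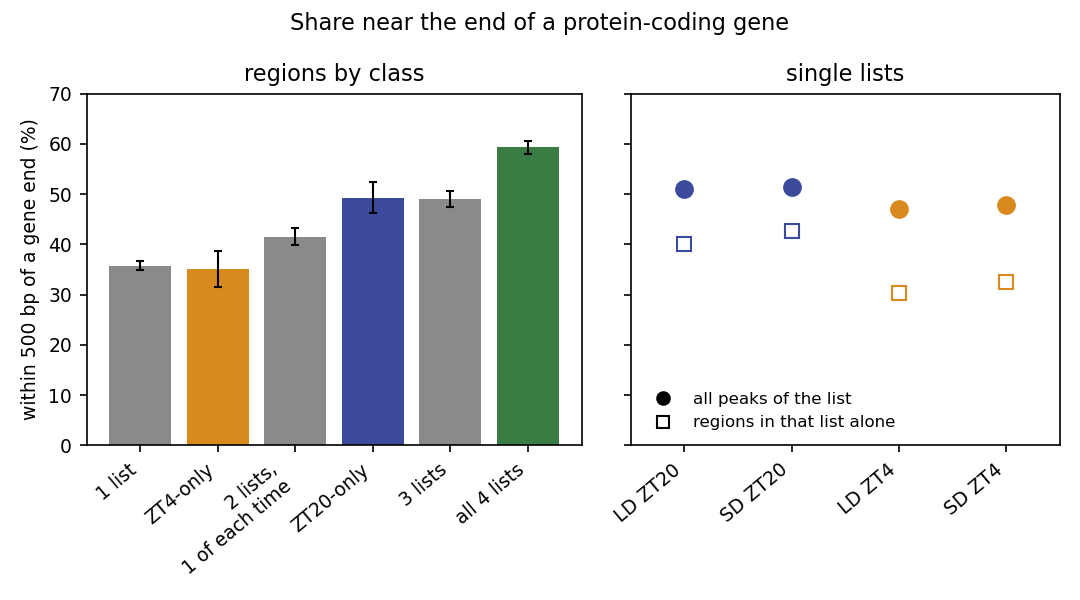
Left, percent of regions of each class with a midpoint within 500 bp of an end of a protein-coding gene (bars, with 95% Wilson intervals), 49.2% for ZT20-only and 35.1% for ZT4-only. Right, the same percent for all peaks of a list (filled circles) and for regions in that list alone (open squares), where both ZT20 lists (blue) lie above both ZT4 lists (orange).

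Genes were called from any peak within the gene or up to 2 kb beyond either end. Of 25449 protein-coding genes, 538 (2.11%) had a peak in both ZT20 lists and no ZT4 list, and 404 (1.59%) had the reverse. All 4 lists had a peak at 6535 genes, and no list at 9224. The genes called ZT20-only were also more often bound in the 6 other libraries, with shares of 45.7% to 63.8%, against 28.7% to 50.7% of the ZT4-only genes. In ELF3 SD at ZT0 the shares were close, at 48.0% against 46.8%. The mean share over the 6 libraries was 52.4% for ZT20-only and 39.4% for ZT4-only genes. For genes listed in other combinations short of all 4 lists it was 43.8%. A time-specific region often did not make a time-specific gene. The 995 ZT20-only regions lay beside 1059 protein-coding genes, of which 430 (40.6%) were called ZT20-only and 381 (36.0%) had other peaks in both ZT4 lists. For ZT4-only regions it was 677 genes, with 276 (40.8%) called ZT4-only and 252 (37.2%) with peaks in both ZT20 lists. Nor did every called gene lie beside such a region. Of the 538 genes called ZT20-only 430 did, and of the 404 called ZT4-only 276 did, while the others were called without a region of their class. Beside 31 genes both kinds of region were found.

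MicroRNA genes were called at shares near those of all genes. Of all 31197 genes, 1.97% were ZT20-only and 1.57% ZT4-only, and among 310 microRNA genes 5 (1.61%) were ZT20-only and 4 (1.29%) ZT4-only. The 5 were MIR169C, MIR7728, MIR7745, MIR7784A and MIR9483A. MIR169 is known from other plants to act on transcripts of the NF-YA transcription factors. A region overlapping the MIR169C gene (Bd5:23923506-23923802) had a fold of 2.73 in LD and 2.05 in SD at ZT20 and was listed elsewhere in ELF3 LL at ZT0 alone (2.24). At MIR9483A the folds were 2.54 and 2.18 at ZT20, and all 3 ZT0 lists of ELF3 held the region (2.03 to 2.30). MIR7745 had 2.54 and 2.32, and MIR7784A had 2.52 and 2.21.

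The 4 ZT4-only microRNA genes were MIR162, MIR845, MIR5181D and MIR7710. MIR162 acts in Arabidopsis on the transcript of the microRNA-processing enzyme DICER-LIKE 1. A region 29 bp outside MIR162 (Bd3:49352547-49352992) had ZT4 folds of 2.119 (LD) and 2.002 (SD) and was also listed in ELF3 SD (1.85) and LL (2.09) at ZT0. MIR845, MIR5181D and MIR7710 had folds between 1.65 and 1.97 and no peak in any of the 6 other lists. At some other microRNA genes a time-specific region lay next to peaks of all 4 lists, so the gene itself was not time-specific. MIR171A, of a family that acts on GRAS transcription factor transcripts, had a ZT20-only region 1037 bp away (3.24 in LD and 2.39 in SD), while its highest peak had 3.86 and 3.42 at ZT20 and 3.64 and 2.43 at ZT4. MIR528, of a family found in monocots, was alike, with a ZT20-only region outside the gene (1.87 and 2.03) and a highest peak of 5.12 and 4.78 at ZT20 and 4.66 and 3.38 at ZT4.

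Among 44 microRNA genes with a peak in all 4 lists, the highest fold at ZT20 exceeded that at ZT4 in 28 genes in LD and in 22 in SD. Neighbouring genes of this group can share a peak. This group held members of the flowering and growth families. MIR159B, of a family acting on GAMYB transcription factor transcripts, had 5.19 and 4.05 at ZT20 and 4.39 and 4.27 at ZT4. MIR156D, of the family that delays the change from juvenile to adult growth through SPL transcription factors, had 3.21 and 3.06 at ZT20 and 3.45 and 3.02 at ZT4. Its relatives MIR156E, MIR156F and MIR156G had identical values, with 3.20 and 2.90 at ZT20 and 2.86 and 2.26 at ZT4. There both ZT20 values were above both ZT4 values, which was not so at MIR156B, MIR156D or MIR156J. MIR166C, of a family acting on HD-ZIP transcription factor transcripts, had 3.58 and 3.38 at ZT20 and 2.31 and 1.92 at ZT4. Both ZT20 values were thus above both ZT4 values at this gene too. The order did not hold at its relatives MIR166B, MIR166E, MIR166F, MIR166G and MIR166H. For example, MIR166B had 3.95 and 3.35 at ZT20 and 4.07 and 3.42 at ZT4.

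Among other RNA classes, ZT20-only and ZT4-only calls were 9 (3.01%) and 6 (2.01%) of 299 small nucleolar RNA genes and 2 (2.33%) and 4 (4.65%) of 86 small nuclear RNA genes, above the shares of all genes but on few calls. They were 2 (0.379%) and 7 (1.33%) of 528 transfer RNA genes, below the shares of all genes but again on few calls. Of 2978 long non-coding RNA genes they were 44 (1.48%) and 46 (1.54%). There the ZT20-only share was below that of all genes and the ZT4-only share close to it.

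Among the few protein-coding genes that the annotation names by symbol, 1 was time-specific. With 2.11% and 1.59% of all protein-coding genes called, groups of this size would hold few or none in any case. No member of 5 CBF genes, transcription factors of the cold response, was time-specific. CBF7 had a peak in all 4 lists (2.65 and 2.58 at ZT20, 2.10 and 1.92 at ZT4). CBF4 had 3.00 and 2.46 at ZT20 and 2.50 in SD at ZT4 without a peak in LD at ZT4. CBF2 and CBF5 had a peak only in SD among the ZT20 lists (2.49 and 1.58) and none at ZT4. None of 3 MADS-box genes was time-specific either. VRT-2, known in wheat and barley as a regulator of the change to reproductive growth, had 3.34 and 2.79 at ZT20 and 3.53 and 2.68 at ZT4, in LD and SD. The groups of 9 MAP kinase cascade genes and 7 secondary wall NAC genes also held none, with 3 genes each in all 4 lists. The single call was NDPK4, a nucleoside diphosphate kinase, which exchanges phosphate between nucleotides. A ZT4-only region inside NDPK4 (Bd2:12835800-12836286) had folds of 2.25 in LD and 1.85 in SD, and ELF3 at ZT0 held it in LD (2.36) and SD (2.30). CAD5, a cinnamyl alcohol dehydrogenase of lignin synthesis, had a ZT20-only region 1953 bp away (3.11 and 2.88) and other peaks in all 4 lists (3.74 and 3.52 at ZT20, 3.11 and 3.68 at ZT4).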

How the data were processed

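Peak lists of 10 anti-FLAG ChIP libraries were used, 1 list per library, without pooling. The input sample had no list analysed here. The published methods describe mapping by bwa to the Brachypodium genome, removal of duplicates and MACS2 peaks filtered at q under 0.01. The processing notes of the submitters list other tools (Bowtie2, Trimmomatic, deepTools, Picard) beside MACS2 and an Arabidopsis build (TAIR10), although the chromosome names are those of Brachypodium. Whether the input served as control is not given in the sources used here. For each peak the authors deposited the fold enrichment over background (a ratio), MACS2's −log10 p and −log10 q, and a score equal to 10 times −log10 p without its decimals. Their lowest −log10 p was about 1, so the q filter had not been applied to the deposited values. More weak peaks therefore enter, and absence from a list means only that no peak reached that threshold. A q-value of 1 is a −log10 q of 0.

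Deposited peaks were merged over the 4 lists (overlap of 1 bp or more), and a region's value in a list is its highest peak. The peak lists give no read depth. Genes came from the RefSeq table of assembly Brachypodium_distachyon_v3.0. Of 10853 summits with −log10 p of at least 3, 65.2% were at most 500 bp from an end of a protein-coding gene, compared with 20.8% and 19.4% for the table shifted by 10000 and 50000 bp. Distances to genes rest on that match, and printed coordinates are those of the deposited peaks, counted from 1. Named regions were the 10 of each direction with the highest smaller fold, the 5 of all 4 lists with the highest smallest fold, and members beside genes of fixed groups. The regions past q 0.01, those in all 3 ZT0 lists, and the gene families other than CBF, MADS-box and RNA classes were chosen after values or the annotation were seen. The members and lists were chosen with earlier results of these data known.

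Counts have no test, since the rule chose them. List length and position per list were tested by exact permutation, and the position test was added after the data were seen. Alternatives changed the threshold, list length, joining, distance and photoperiods used. Gene groups by product (clock, light receptors, B-box, light harvesting), sequence motifs, promoters and the loci of the tagged genes were not analysed here, and no sequence is printed, because the reference used here holds no sequence, products or other gene identifiers. Python 3.11.15, numpy 2.4.6, pandas 2.3.3 and matplotlib 3.10.9 were used, and the overlap functions were tested on simulated data.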

Additional observations from a re-analysis of the deposited data

Results flagged for a closer look

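The list-length ratio of ZT20 to ZT4 had opposite signs in the 2 photoperiods under 2 of 3 thresholds. With all deposited peaks the log2 ratio was -0.053 in LD and 0.077 in SD. With −log10 p of at least 2 it was above 0 in both (0.081 in LD and 0.125 in SD, mean 0.103, exact sign-flip permutation p = 0.5, the smallest possible). With peaks past q 0.01 the order turned, to 0.52 in LD and -0.38 in SD. Each value compares 2 single libraries, and the difference between photoperiods was not tested.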

How the results depend on the processing

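The 995 ZT20-only and 670 ZT4-only regions fell to 617 and 321 with −log10 p of at least 2 in every list, and to 18 and 14 with q under 0.01. Leaving out a photoperiod removes the demand for a second list, and the counts were 5147 (without SD) and 5957 (without LD) for ZT20 and 5663 and 5236 for ZT4. The top 10000 peaks of each list, joining by summits, the 1000 bp margin and leaving out chromosome ends kept both counts within 1.5 times. Genes (538 ZT20-only and 404 ZT4-only) became 21 and 14 with q under 0.01 and 240 ZT4-only genes with −log10 p of at least 2. They were 2515 and 2973 for ZT20 and 2526 and 2398 for ZT4 without SD and without LD. The mean log2 length ratio of 0.012 turned to -0.053 without SD and was 0.077 without LD.

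The mean difference in share over the 6 other lists, 13.0 percentage points, ranged from 7.38 without SD to 15.3 without LD. Over alternatives and lists, 41 of 42 differences favoured ZT20-only regions. The exception was -1.32 points, in ELF3 SD at ZT0 for a weaker peak of −log10 p between 1.5 and 2. These differences are not independent checks. They re-cut the same lists, the strata divide the same regions, and leaving out chromosome ends removed no region. The gene-end difference of 14.2 points was 8.88 with −log10 p of at least 2 in every list, 9.95 with the top 10000 peaks, 15.1 for a weaker peak between 1 and 1.5, 13.3 for one of at least 2, and 9.75 to 9.76 within single photoperiods. Strata, single photoperiods for these shares, the position test per list and the gene-end alternatives were chosen after seeing the data. No paired analysis with a replicate block was possible because no condition compared had more than 1 library. The motif analysis was not run. The causes were not tested.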
